A study of Mus musculus with 40 samples.

Results

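Female mice whose hippocampal neurons lost H2A.Z were compared with females that lost it in the same way and received a wild-type copy of H2A.Z.1 in its place. They are 8 of the 40 mice of the series, 4 in each group, found by their sample titles and by the columns of the deposited count table with the same sample numbers. Mice 13, 14, 33 and 34 are labelled F_H2AZ_KD, and mice 19, 20, 39 and 40 F_H2AZ_KD+WT. All 8 were floxed for both genes of H2A.Z, H2afz (H2az1 in the table) and H2afv (H2az2), and received into both hippocampi a virus with Cre under the synapsin promoter, which is active in neurons. In the H2A.Z KO mice the Cre virus was mixed with a virus for the 3xMyc tag only. In the H2A.Z.1 WT mice it was mixed with a virus for 3xMyc-tagged H2A.Z.1 under the CMV promoter, which is not limited to neurons. The 3 female Myc mice (11, 31 and 32), used here for reference, received the 3xMyc virus with saline in place of Cre, and GEO labels their genotype as WT. The study tested mice given these viruses for memory, and it does not say whether every sequenced mouse was among them. The age of the mice is not given in the sources used here. The RNA is from whole hippocampal tissue, which also holds glia, vessels, blood and neurons that no virus reached. The groups are called KO, WT and Myc below.

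H2A.Z is a variant of histone H2A that the chromatin remodellers SRCAP and p400 place into nucleosomes, mostly at promoters and enhancers. In most tissues it is made from H2az1 and H2az2, whose proteins are nearly alike, and it can be acetylated on its N-terminal tail by the acetyltransferase Tip60, the product of Kat5. In neurons H2A.Z marks genes that respond to activity and has been tied to the formation of memory. The comparison of WT with KO mice asks which transcripts of the deleted hippocampus differ once H2A.Z.1 alone, of the 2 proteins, is put back.

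RNA-seq gave 1 library per mouse, with 31547523 to 42928073 counts in the KO mice and 27928823 to 42818051 in the WT mice. Values are given as CPM, counts scaled to library size with TMM factors, so that levels compare the same gene between mice and not one gene with another. A gene was called when edgeR's quasi-likelihood test gave a Benjamini-Hochberg adjusted p under 0.05 over the 28449 genes tested, and errors of log2 fold changes are standard errors (SE). Any 2 mice of the KO or the WT group differed by more than counting error (chi-square per degree of freedom 15.6 to 95.6), so no library was counted as a copy of another. Myc mouse 32 stood apart from Myc mice 11 and 31 (286 and 205, against 25.5 between those 2), and values against Myc are given without it where they move. Ttr, which is made by the choroid plexus, measured 84.3, 3655, 2654 and 35.6 CPM in KO mice 13, 14, 33 and 34. It measured 92.1, 4104, 907 and 49.4 CPM in WT mice 19, 20, 39 and 40. Myc mice 11, 31 and 32 had 10.1, 26.1 and 7.03 CPM. The KO and the WT group thus each hold mice with much and mice with little choroid plexus RNA. Of the defining cell markers, Slc17a7 of excitatory neurons, Prox1 of the dentate gyrus, Mbp of myelin and Slc1a3 of astrocytes were present in every mouse.

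The targeted genes themselves differed little in these libraries. H2az1 (GRCm39 chromosome 3, 137570072 to 137572690, plus strand) measured 28.1, 29.2, 30.3 and 36.3 CPM in KO mice 13, 14, 33 and 34, 47.7, 32.7, 41.9 and 38.2 CPM in WT mice 19, 20, 39 and 40, and 34.5, 34.1 and 28.1 CPM in Myc mice 11, 31 and 32, the order kept for every gene below. The lowest WT mouse lay below the highest KO mouse, and the difference was not called (log2 fold change 0.37 ± 0.16, edgeR adjusted p = 0.117, 95% interval 0.049 to 0.70). H2az2 (chromosome 11, 6371231 to 6394481, minus strand) measured 28.3, 30.0, 26.2 and 28.0 CPM in KO and 28.3, 26.7, 25.1 and 25.3 CPM in WT mice, which overlap (log2 fold change -0.094 ± 0.11, edgeR adjusted p = 0.631). KO mice did not differ from Myc mice by test in H2az1 (log2 fold change -0.058, edgeR adjusted p = 0.828) or in H2az2 (0.28, edgeR adjusted p = 0.0609). The H2az2 value lay toward more RNA in KO than in Myc mice, not less. A count over the whole gene cannot tell a recombined transcript, a viral one or one from a cell without virus apart. Groups are therefore named by their labels, and the RNA level of the targeted genes in these libraries does not check them. The study itself reported reduced H2afz RNA in KO mice and reduced H2afv RNA in every Cre group. It also reported raised H2afz RNA with the H2A.Z.1 viruses, and H2A.Z loss in cultured neurons given Cre. It held that the small RNA loss likely reflects bulk tissue, where a deletion limited to neurons is hard to detect.

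Across the genome 4134 genes were called between WT and KO mice, 14.5% of those tested. More genes were lower than higher in WT mice, 2610 (9.17%) against 1524 (5.36%). The median log2 fold change was -1.01 among genes called lower and, among those called higher, 0.49, and past a log2 fold change of 1 there were 1320 lower (4.64%) and 293 higher genes (1.03%). Every WT mouse lay below every KO mouse for 2686 genes (9.44%) and above for 2138 (7.52%). The number called fell to 2586 without KO mouse 13, and the number called higher to 823 without KO mouse 13, 882 without KO mouse 14 and 975 without WT mouse 39.

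**Figure D1:**
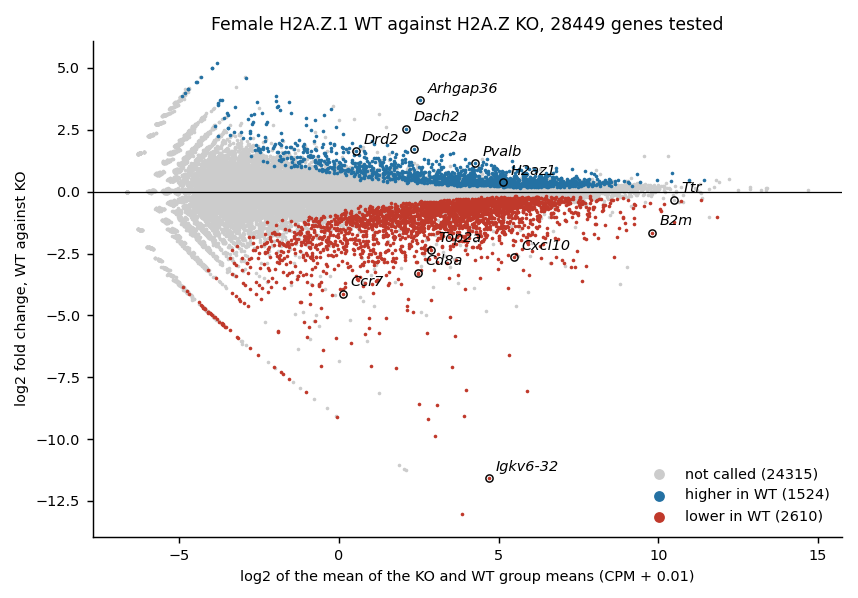
Each point is one of the 28449 genes tested, with the log2 of its mean CPM over the KO and WT group means (after adding 0.01) on the x axis and the log2 fold change of WT against KO on the y axis; blue and red points have an adjusted p under 0.05. The 2610 red points reach far below 0 at all levels, while most of the 1524 blue points lie close above 0.

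Genes of antiviral defence were lower in WT mice. Interferons, released by cells that sense foreign nucleic acid, act on genes that carry an interferon-stimulated response element. Of 82 interferon response genes tested, 80 were lower and none was higher, with a median log2 fold change of -1.84 against 0.0081 over all genes tested. B2m, which pairs with every MHC class I heavy chain, measured 1409, 1279.7, 1037 and 1717 CPM in KO and 443, 435, 409 and 442 CPM in WT mice. The WT mice are nearly equal and lie far below the lowest KO mouse, and B2m was 3.15-fold lower in WT (log2 fold change -1.65 ± 0.30, edgeR adjusted p = 3.52e-04). Trim25, a ubiquitin ligase that activates the RNA sensor RIG-I, was among the 3 genes of the list with the smallest p, at 31.9, 28.6, 26.2 and 37.0 CPM in KO and 15.1, 14.2, 14.6 and 13.4 CPM in WT mice (log2 fold change -1.11 ± 0.16, edgeR adjusted p = 1.22e-05). Tlr3, a sensor of double-stranded RNA, and Parp12, an antiviral ADP-ribosyltransferase, were lower by log2 fold changes of -1.03 ± 0.15 and -1.23 ± 0.20 (edgeR adjusted p = 3.27e-05 and 9.68e-05), with all WT mice below all KO mice for both.

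The letters of this element are found in promoters of many of these genes, which is a description and not a test. In RefSeq promoters (250 bases before to 50 after a start, GRCm38.p6), the element was read as GAAA, any 2 bases and GAAA again, on either strand. A gene with several promoters was counted as holding the element when any of them did. Of genes with a matched promoter, 8.88% of the 1938 called lower held it, 2.38% of the 1175 called higher and 3.9% of all 19901 tested. It stood in 36 of the 62 matched interferon response genes. The cAMP response element TGACGTCA stood in 1.55%, 4.17% and 2.46% in the same order. Windows of 60 bases before the start are shown for B2m and for 5 interferon-induced genes that were chosen after their values were seen because they hold the element. Only the first match is in capitals, as it reads on the gene's strand, and the windows of Isg15 and Bst2 hold further matches.
B2m (chr2:122147523-122147582, plus strand): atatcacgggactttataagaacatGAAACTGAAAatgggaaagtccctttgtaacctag
Isg15 (chr4:156200862-156200921, minus strand): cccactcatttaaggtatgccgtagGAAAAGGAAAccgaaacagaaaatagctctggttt
Rsad2 (chr12:26456538-26456597, minus strand): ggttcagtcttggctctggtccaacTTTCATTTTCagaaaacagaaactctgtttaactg
Cxcl10 (chr5:92349068-92349127, minus strand): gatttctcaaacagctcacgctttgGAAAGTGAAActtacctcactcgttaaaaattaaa
Bst2 (chr8:71537568-71537627, minus strand): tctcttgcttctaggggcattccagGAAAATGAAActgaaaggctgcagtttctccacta
Stat2 (chr10:128270251-128270310, plus strand): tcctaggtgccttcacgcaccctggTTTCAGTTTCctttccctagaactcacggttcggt

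The interferon-induced genes shown above had the same order of groups as B2m. They were picked with this order already known, so it is no test of the element. The element also stands in promoters of genes called higher in WT mice, among them Kcnc2, Vamp1, Kat5 and Unc80. It is found as well in promoters of genes that were not called, such as Sst and Bdnf. Isg15, a ubiquitin-like protein attached to viral and host proteins, measured 38.8, 35.1, 46.0 and 84.3 CPM in KO and 12.4, 11.5, 20.0 and 11.2 CPM in WT mice (log2 fold change -1.88 ± 0.46, edgeR adjusted p = 0.00535). Rsad2, or viperin, which blocks viral RNA synthesis, measured 34.0, 26.3, 28.4 and 55.3 CPM in KO and 10.8, 9.55, 13.4 and 11.9 CPM in WT mice (log2 fold change -1.66 ± 0.35, edgeR adjusted p = 0.00143). Cxcl10, a chemokine that draws T cells, measured 61.9, 60.3, 47.6 and 137 CPM in KO and 10.4, 13.0, 13.6 and 12.3 CPM in WT mice (log2 fold change -2.64 ± 0.62, edgeR adjusted p = 0.00358). Each of the 3 separates the groups without overlap, and KO mouse 34 is the highest of all mice for each. Bst2, which tethers budding virus to the cell, was 3.52-fold lower (log2 fold change -1.82 ± 0.36, edgeR adjusted p = 8.71e-04) and Stat2, a transcription factor of the interferon signal, 2.27-fold lower (log2 fold change -1.18 ± 0.21, edgeR adjusted p = 3.01e-04), also without overlap.

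Antigen presentation followed the same direction. Of 25 genes of MHC class I and peptide loading, 23 were lower in WT mice (median log2 fold change -1.65), and of 11 genes of MHC class II all 11 were (median -2.64). Tap2, a part of the pump that loads peptides onto class I, measured 50.6, 46.5, 36.6 and 85 CPM in KO and 16.8, 17.3, 17.4 and 15.5 CPM in WT mice (log2 fold change -1.71 ± 0.29, edgeR adjusted p = 2.33e-04). Psmb8, a subunit of the immunoproteasome that cuts those peptides, measured 59.7, 61.8, 44.2 and 115 CPM in KO and 18.7, 17.8, 16.2 and 18.8 CPM in WT mice (log2 fold change -1.97 ± 0.39, edgeR adjusted p = 8.97e-04). Ciita, the master activator of class II genes, measured 8.67, 7.61, 6.79 and 19.0 CPM in KO and 2.81, 2.95, 2.83 and 3.27 CPM in WT mice (log2 fold change -1.83 ± 0.35, edgeR adjusted p = 5.44e-04). The WT values of Ciita span a narrow band close to the Myc mice (2.85, 1.98 and 2.09 CPM), whereas Tap2 and Psmb8 stay above them. H2-DMa, a chaperone of class II, and H2-T24, a non-classical class I gene, were lower by log2 fold changes of -1.11 ± 0.19 and -1.18 ± 0.20 (edgeR adjusted p = 2.05e-04 and 2.01e-04). Genes of the MHC are near copies of each other, so that reads may be split between them.

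**Figure D2:**
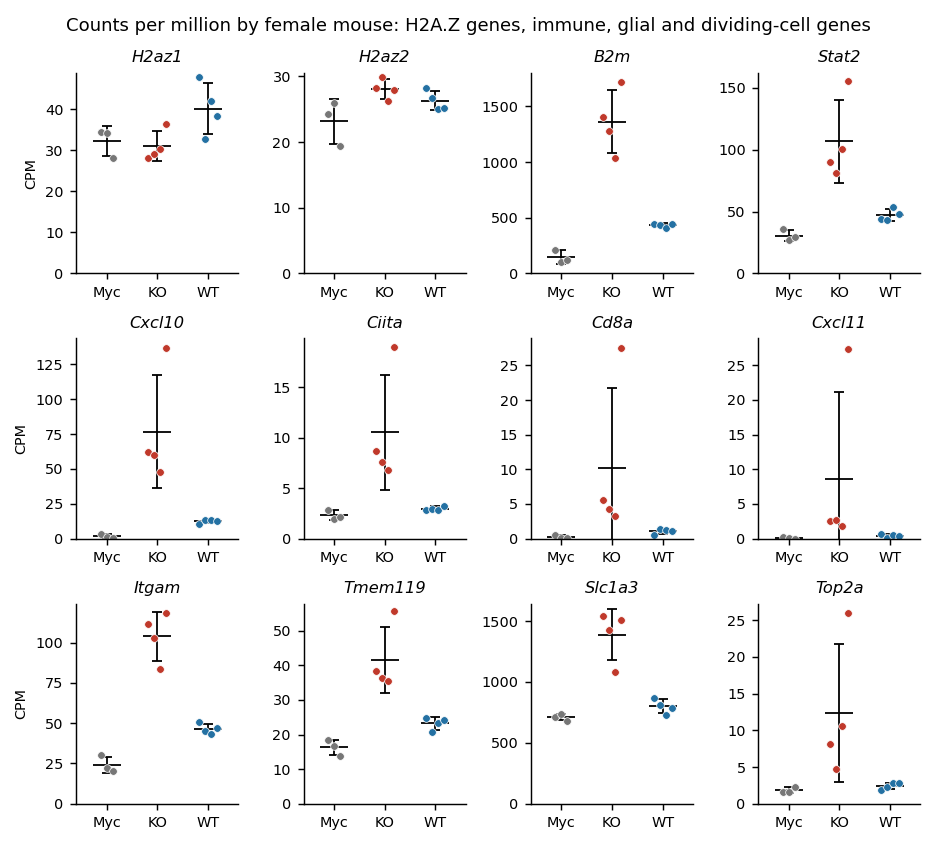
CPM on the y axis in each female mouse for 12 genes, with Myc mice in grey, KO mice in red and WT mice in blue; bars are the mean ± SD (cut at 0 where they pass it) of 3, 4 and 4 mice. For B2m the 4 WT mice sit between 409 and 443 CPM and the 4 KO mice between 1037 and 1717 CPM, while H2az1 and H2az2 overlap between the groups.

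Transcripts of lymphocytes, which are scarce in a healthy hippocampus, were lower in WT mice as well. Of 43 T and NK cell genes 40 were lower in WT mice (median log2 fold change -2.42), and of 30 genes of B and plasma cells 17 (median -2.26). Cd8a, which marks cytotoxic T cells, measured 5.63, 4.22, 3.24 and 27.5 CPM in KO and 0.494, 1.34, 1.25 and 1.10 CPM in WT mice (log2 fold change -3.27 ± 0.67, edgeR adjusted p = 0.00113). Cd3e, part of the T cell receptor complex, measured 4.82, 3.55, 2.13 and 13.2 CPM in KO and 0.962, 1.10, 0.616 and 1.07 CPM in WT mice (log2 fold change -2.67 ± 0.60, edgeR adjusted p = 0.00251). KO mouse 34 has the highest value of both, and the other 3 KO mice still lie above every WT mouse. Ctla4, an inhibitory receptor of T cells, was 14.0-fold lower in WT (log2 fold change -3.81 ± 0.68, edgeR adjusted p = 3.01e-04) and Icos, a costimulatory one, 6.48-fold lower (log2 fold change -2.70 ± 0.48, edgeR adjusted p = 2.49e-04). KO mouse 34 is highest for Ctla4 too, and without it the log2 fold changes were -2.06 for Cd8a, -1.91 for Cd3e, -2.63 for Ctla4 and -2.13 for Icos, all still called. In this tissue fewer cells of a type and less RNA per cell cannot be told apart.

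B cell transcripts were uneven among KO mice, and 10 of the 30 genes were called lower without KO mouse 14 and 10 when only the KO and WT mice were fitted. Cd79a, part of the B cell receptor, measured 4.98, 4.86, 0.679 and 4.55 CPM in KO and 0.468, 0.719, 0.479 and 0.213 CPM in WT mice. KO mouse 33 falls inside the range of the WT mice, and the other KO mice lie above 4 CPM (log2 fold change -2.98 ± 0.59, edgeR adjusted p = 8.05e-04). Pax5, a B cell transcription factor, did not overlap between the groups (log2 fold change -2.80 ± 0.51, edgeR adjusted p = 3.10e-04). Immunoglobulin variable genes took 7 of the 10 places with the largest log2 fold changes among genes with a mean of at least 1 CPM whose groups do not overlap. For Igkv6-32, first of these, the KO mice measured 177, 24.5, 0.0309 and 4.96 CPM and the WT mice 0, 0.0257, 0.0228 and 0 CPM (log2 fold change -11.58 ± 3.12, edgeR adjusted p = 0.0121). Its level in KO mouse 33 equals about 1 count, so the fitted fold change has no firm size, and these genes are close relatives that may share reads. It was not called when only the KO and WT mice were fitted or without KO mouse 13 (adjusted p = 0.0599 and 0.0626).

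Cytokines and complement were lower as well. Of 58 chemokines, cytokines and their receptors 42 were lower and none higher (median log2 fold change -1.32). Cxcl11, like Cxcl10 a ligand of Cxcr3, a chemokine receptor of T cells, measured 2.50, 2.70, 1.85 and 27.3 CPM in KO and 0.624, 0.128, 0.570 and 0.356 CPM in WT mice (log2 fold change -4.33 ± 0.96, edgeR adjusted p = 0.00225). Ccr7, which guides T and dendritic cells to lymph nodes, measured 0.943, 0.781, 0.463 and 6.02 CPM in KO and 0.156, 0.0514, 0.114 and 0.142 CPM in WT mice (log2 fold change -4.12 ± 0.80, edgeR adjusted p = 6.05e-04). Ubd, a ubiquitin-like modifier induced by cytokines, measured 1.43, 1.34, 1.42 and 11.6 CPM in KO and 0.0520, 0.334, 0.479 and 0 CPM in WT mice (log2 fold change -4.08 ± 1.05, edgeR adjusted p = 0.00733). Cxcl11, Ccr7 and Ubd complete the 10 largest decreases together with the 7 immunoglobulin genes, and KO mouse 34 stands far above all other mice in each of the 3. Without KO mouse 34 the log2 fold changes were -2.47, -2.64 and -2.58, and Ubd was no longer called (adjusted p = 0.0811). More even across mice were Tnfsf10 (TRAIL, a death ligand; log2 fold change -1.52 ± 0.24, edgeR adjusted p = 9.27e-05), Tgfb1 (a growth factor made by microglia; log2 fold change -1.14 ± 0.18, edgeR adjusted p = 4.98e-05) and Ifngr1 (a receptor chain for interferon gamma; log2 fold change -1.07 ± 0.17, edgeR adjusted p = 7.45e-05). Of 26 complement genes 19 were lower (median -1.29). C2, a protease of the classical pathway, measured 9.83, 11.3, 5.46 and 14.5 CPM in KO and 1.9, 2.77, 2.10 and 1.74 CPM in WT mice (log2 fold change -2.27 ± 0.42, edgeR adjusted p = 4.16e-04). Cfb, of the alternative pathway, measured 16.5, 15.4, 17.0 and 55.6 CPM in KO and 5.28, 5.93, 7.21 and 6.90 CPM in WT mice (log2 fold change -2.04 ± 0.39, edgeR adjusted p = 5.74e-04).

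Microglia, the macrophages of the brain, had lower transcripts of both resting and phagocytic states. Of 20 genes of homeostatic microglia 15 were lower in WT mice (median log2 fold change -0.85), as were 22 of 30 genes of phagocytic and disease-associated microglia (median -1.15) and 28 of 35 lysosome genes (median -0.68). Tmem119, which sets microglia apart from other macrophages, measured 38.4, 36.4, 35.5 and 55.7 CPM in KO and 24.7, 20.6, 23.4 and 24.2 CPM in WT mice (log2 fold change -0.84 ± 0.17, edgeR adjusted p = 8.17e-04). P2ry12, a purine receptor of resting microglia, measured 65.6, 67.4, 58.4 and 78.8 CPM in KO and 45.9, 44.6, 45.9 and 53.7 CPM in WT mice (log2 fold change -0.51 ± 0.11, edgeR adjusted p = 0.00105). The WT mice reach down to the Myc mice for P2ry12 (47.5, 46.1 and 53.5 CPM) and stay above them for Tmem119 (18.4, 16.6 and 13.8 CPM). Sall1, a transcription factor of microglial identity, and Selplg, an adhesion ligand, were lower by log2 fold changes of -0.67 ± 0.094 and -0.82 ± 0.11 (edgeR adjusted p = 1.22e-05 and 9.61e-06). Itgam (CD11b), a complement receptor of microglia, measured 112, 103, 83.5 and 118 CPM in KO and 50.5, 44.9, 43.4 and 46.9 CPM in WT mice (log2 fold change -1.16 ± 0.21, edgeR adjusted p = 2.79e-04). Grn (progranulin), Laptm5 and Axl, which clears dying cells, fell by 1.16, 1.16 and 1.02 on the log2 scale (edgeR adjusted p = 7.61e-05, 1.54e-04 and 8.99e-04). Csf1, the growth factor that sustains microglia, was lower too, at 136, 118, 73.4 and 92.7 CPM in KO and 61.4, 61.1, 43.6 and 48.3 CPM in WT mice (log2 fold change -0.97 ± 0.20, edgeR adjusted p = 0.00122). The count of phagocytic genes called was 11 without KO mouse 13, 12 without KO mouse 14, 11 without WT mouse 39 and 12 without WT mouse 40.

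Among astrocyte genes, the reactive ones differed most. 21 of 32 reactive astrocyte genes (median log2 fold change -1.62) and 9 of 20 general astrocyte genes (median -0.36) were lower in WT mice. Slc1a3, a glutamate transporter of astrocytes, measured 1539, 1425, 1081 and 1505 CPM in KO and 871, 808, 730.2 and 787 CPM in WT mice (log2 fold change -0.80 ± 0.12, edgeR adjusted p = 4.29e-05). Aldh1l1, a folate enzyme and astrocyte marker, measured 84.7, 88.7, 64.6 and 75.5 CPM in KO and 53.3, 43.8, 40.7 and 42.5 CPM in WT mice (log2 fold change -0.80 ± 0.16, edgeR adjusted p = 6.56e-04). For both genes the WT mice lie below all KO mice and near the Myc mice. Gja1, the gap junction protein connexin 43, was 1.54-fold lower (log2 fold change -0.62 ± 0.14, edgeR adjusted p = 0.00148), and Cp, the ferroxidase ceruloplasmin, 3.25-fold lower (log2 fold change -1.70 ± 0.30, edgeR adjusted p = 2.69e-04). Aqp4, the water channel of astrocyte endfeet, was lower in all WT mice (log2 fold change -1.02 ± 0.33, edgeR adjusted p = 0.0345) but was not called without KO mouse 13 or 14 or WT mouse 39 or 40 (adjusted p = 0.158, 0.0999, 0.103 and 0.101). The reactive count was 12 without KO mouse 13 or WT mouse 39 or 40, and the general count 5 without KO mouse 13 or 14. Several genes of the reactive astrocyte list, Psmb8 among them, are also induced by interferon or made by microglia.

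**Figure D3:**
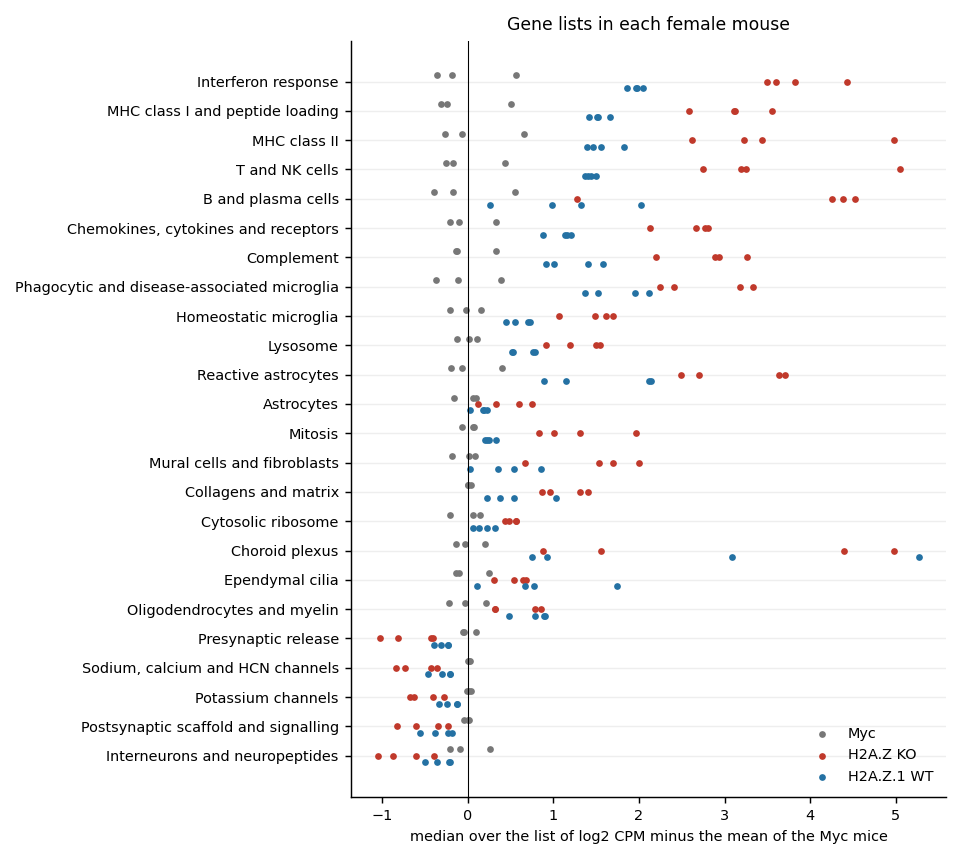
For 24 gene lists (y axis), each point is a mouse and the x axis gives the median over the list of its log2 CPM minus the mean of the Myc mice; grey is Myc, red is KO and blue is WT. In the interferon, MHC and T cell lists the WT mice sit close together between the Myc and the KO mice, while in the choroid plexus list KO and WT mice are spread over the same range.

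Genes of dividing cells were lower in WT mice. Of 40 mitosis genes 27 were lower in WT mice (median log2 fold change -1.27), and of 44 DNA replication genes 15 (median -0.27). Top2a, a topoisomerase of dividing cells, measured 8.16, 4.77, 10.5 and 26.0 CPM in KO and 1.87, 2.26, 2.81 and 2.81 CPM in WT mice (log2 fold change -2.34 ± 0.48, edgeR adjusted p = 0.00122). Mki67, which marks cycling cells, measured 9.75, 6.72, 13.0 and 28.0 CPM in KO and 3.64, 3.62, 4.95 and 3.56 CPM in WT mice (log2 fold change -1.86 ± 0.40, edgeR adjusted p = 0.00162). KO mouse 34, highest for T cell genes, is also highest here, and the WT mice reach the level of the Myc mice (1.62, 1.54 and 2.30 CPM for Top2a). Without KO mouse 34, 14 mitosis and 8 replication genes were called lower, without WT mouse 39, 9 replication genes, and with only the KO and WT mice fitted, 8. Mcm3, part of the replicative helicase, and Rrm2, which makes deoxynucleotides, were lower by log2 fold changes of -1.07 ± 0.21 and -1.74 ± 0.35 (edgeR adjusted p = 6.19e-04 and 8.75e-04). Whether the dividing cells are lymphocytes, microglia or others was not tested.

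Genes of vessels, matrix and stress were lower in part. Of 26 genes of mural cells and fibroblasts 16 were lower (median log2 fold change -1.02), of 62 collagens and matrix genes 26 (median -0.55) with 1 higher, and of 22 endothelial genes 7 (median -0.36). The endothelial count was 3 without KO mouse 13 or 14, 4 without WT mouse 40, 16 without KO mouse 34 and 3 when only the KO and WT mice were fitted, and the mural count was 6 without KO mouse 14 and 9 without WT mouse 19. The count of matrix genes was 16 without KO mouse 14, 17 without WT mouse 39 and 15 without WT mouse 40. Vwf, a clotting factor made by endothelium, measured 35.1, 41.0, 30.4 and 29.9 CPM in KO and 13.5, 15.6, 16.8 and 11.2 CPM in WT mice (log2 fold change -1.25 ± 0.24, edgeR adjusted p = 6.22e-04). Mmp14, a membrane protease that cuts matrix, measured 35.0, 38.5, 23.3 and 35.0 CPM in KO and 16.8, 21.7, 15.8 and 15.9 CPM in WT mice (log2 fold change -0.91 ± 0.19, edgeR adjusted p = 0.00122). Neither gene overlaps between the groups. Of 39 p53 targets 15 were lower, including Cdkn1a, the inhibitor p21 (32.1, 26.2, 21.4 and 27.2 CPM in KO and 21.2, 14.5, 12.6 and 14.0 CPM in WT mice; log2 fold change -0.78 ± 0.19, edgeR adjusted p = 0.00391). Of 29 genes of the stress response of the endoplasmic reticulum and Atf4, 10 were lower, such as Nupr1 (log2 fold change -1.92 ± 0.34, edgeR adjusted p = 2.93e-04). The p53 count was 7 without KO mouse 13 or WT mouse 40 and 9 without WT mouse 39, and the stress count 6 without KO mouse 14 or WT mouse 39. Cytosolic ribosomal protein genes were lower by little, with 17 of 80 called lower, 1 called higher and a median of -0.32, and Rpl5 and Rpl23 fell by 0.45 and 0.43 on the log2 scale (edgeR adjusted p = 0.00109 and 0.00307). Their number called lower was 9 without KO mouse 13 or 14, 8 without WT mouse 40, 25 with DESeq2 and 29 when only the KO and WT mice were fitted, and ribosomal genes have many processed copies that may take reads.

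Among genes higher in WT mice were those for neuronal ion channels and the release machinery. Of 57 potassium channel genes 13 were higher and 2 lower (median log2 fold change 0.28). Over all genes tested 5.36% were called higher and 9.17% lower. Kcnc1 and Kcnc2 (Kv3.1 and Kv3.2) carry the rapid repolarising current of fast-spiking interneurons. Kcnc1 measured 53.9, 58.2, 90.3 and 76.8 CPM in KO and 101, 95.7, 121 and 103 CPM in WT mice (log2 fold change 0.59 ± 0.11, edgeR adjusted p = 4.96e-04). Kcnc2 measured 34.3, 37.2, 53.9 and 39.3 CPM in KO and 62.4, 61.7, 79.9 and 68.0 CPM in WT mice (log2 fold change 0.73 ± 0.11, edgeR adjusted p = 4.79e-05). Kcnn1, a calcium-activated channel, measured 5.06, 6.31, 7.28 and 6.89 CPM in KO and 14.3, 11.4, 12.4 and 12.5 CPM in WT mice (log2 fold change 0.99 ± 0.15, edgeR adjusted p = 2.87e-05). Every WT mouse exceeds every KO mouse for the 3 genes, and for Kcnc1 the lowest WT mouse is, in proportion, closest to the highest KO mouse. Of 31 sodium, calcium and HCN channel genes 11 were higher and 1 lower (median 0.29). Nalcn, a leak channel that sets the resting potential, measured 32.1, 36.5, 48.7 and 52.6 CPM in KO and 62.0, 74.7, 64.0 and 72.4 CPM in WT mice (log2 fold change 0.69 ± 0.12, edgeR adjusted p = 2.23e-04). Hcn4, a pacemaker channel, was 2.37-fold higher (log2 fold change 1.24 ± 0.22, edgeR adjusted p = 1.95e-04). The lower one was Cacna1s, the calcium channel of skeletal muscle, at 5.31, 3.70, 1.82 and 3.02 CPM in KO and 0.780, 1.98, 1.10 and 1.57 CPM in WT mice (log2 fold change -1.36 ± 0.29, edgeR adjusted p = 0.00122). The count of potassium channels called higher was 8 without KO mouse 13 and 21 without KO mouse 33 or 34, and that of the other channels 7 without KO mouse 13 or WT mouse 39.

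The presynaptic list had 13 of 48 genes higher and none lower (median log2 fold change 0.34). Doc2a, a calcium sensor of spontaneous and asynchronous release, measured 1.64, 1.58, 3.55 and 2.72 CPM in KO and 8.50, 8.24, 9.45 and 5.37 CPM in WT mice (log2 fold change 1.74 ± 0.25, edgeR adjusted p = 1.46e-05). Syt3, a synaptotagmin of synaptic facilitation, measured 17.4, 18.4, 26.1 and 27.5 CPM in KO and 38.2, 33.8, 42.2 and 38.0 CPM in WT mice (log2 fold change 0.77 ± 0.13, edgeR adjusted p = 1.27e-04). Vamp1, a vesicle SNARE, measured 33.1, 36.8, 61.1 and 59.7 CPM in KO and 99.4, 75.9, 98.6 and 83.8 CPM in WT mice (log2 fold change 0.91 ± 0.18, edgeR adjusted p = 7.26e-04). The groups do not overlap, and KO mice 33 and 34 lie above KO mice 13 and 14 for all 3 genes. The count of presynaptic genes called was 6 without KO mouse 13 or 14, 7 without WT mouse 39, 24 without KO mouse 33, 8 when only the KO and WT mice were fitted and 20 with total counts. Of 32 genes of postsynaptic scaffold and signalling none was called by edgeR, with 4 at an unadjusted p under 0.05 (median 0.17), and DESeq2 called 1. With the range of the sample number as a term edgeR called 3 of them higher, 2 with total counts and no TMM factor, 3 without the mice above 1000 CPM of Ttr and 3 without KO mouse 33. Dlg2, a scaffold of NMDA receptors, measured 209, 204, 293 and 280.3 CPM in KO and 281, 288, 339.7 and 346 CPM in WT mice, which overlap (log2 fold change 0.35 ± 0.14, edgeR adjusted p = 0.0845). It was called with the range as a term, with total counts and without KO mouse 33 (edgeR adjusted p = 0.0129, 0.0360 and 0.0314). Of 27 genes of AMPA, NMDA and kainate receptors 3 were higher and 1 lower (median 0.11), with 1 higher without KO mouse 13. Cacng2 (stargazin, which carries AMPA receptors to the synapse) was one of those higher (log2 fold change 0.63 ± 0.13, edgeR adjusted p = 0.00104). The 4 calls among these 27 receptor genes are a share close to the 14.5% of all genes tested.

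Of 53 receptors for other transmitters 7 were higher and 2 lower, against 14.5% called of all genes (median log2 fold change 0.094). Drd2, the D2 dopamine receptor, measured 0.754, 0.625, 0.864 and 0.545 CPM in KO and 1.85, 3.06, 2.10 and 1.74 CPM in WT mice (log2 fold change 1.65 ± 0.24, edgeR adjusted p = 2.61e-05). Oprl1, the nociceptin receptor, measured 8.78, 11.2, 12 and 9.89 CPM in KO and 20.7, 23.4, 20.6 and 21.0 CPM in WT mice (log2 fold change 1.04 ± 0.14, edgeR adjusted p = 7.28e-06). Chrnb2, a subunit of nicotinic receptors, measured 16.6, 17.8, 23.4 and 27.9 CPM in KO and 30.3, 34.5, 39.6 and 36.9 CPM in WT mice (log2 fold change 0.72 ± 0.11, edgeR adjusted p = 3.61e-05). None of these overlaps, and the WT mice are as high as the Myc mice for Drd2 (2.30, 1.58 and 1.83 CPM) and below them for Oprl1 and Chrnb2. Among 28 genes of interneurons and neuropeptides 5 were higher and none lower (median 0.40). Pvalb, which marks fast-spiking interneurons, measured 10.1, 9.88, 15.0 and 12.3 CPM in KO and 26.3, 22.8, 32.0 and 25.2 CPM in WT mice (log2 fold change 1.17 ± 0.22, edgeR adjusted p = 4.50e-04). Gad1, which makes GABA, measured 163, 169.8, 217 and 208 CPM in KO and 278, 251, 259 and 287 CPM in WT mice (log2 fold change 0.50 ± 0.12, edgeR adjusted p = 0.00251). Nos1, of nitric oxide interneurons, was 1.77-fold higher (log2 fold change 0.82 ± 0.20, edgeR adjusted p = 0.00502) and Gabrg3, a GABA receptor subunit, 1.48-fold higher (log2 fold change 0.56 ± 0.14, edgeR adjusted p = 0.00456). Of 18 genes of adult neurogenesis 2 were higher and 3 lower (median -0.030), and of these Dcx, made by young neurons, measured 7.62, 7.52, 15.2 and 13.2 CPM in KO and 18.8, 25.7, 20.0 and 15.4 CPM in WT mice (log2 fold change 0.88 ± 0.23, edgeR adjusted p = 0.00654). The lowest WT mouse exceeds the highest KO mouse by little for Dcx, and KO mice 13 and 14 are the lowest. Interneuron genes called higher numbered 3 without KO mouse 14 and 9 without KO mouse 33.

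**Figure D4:**
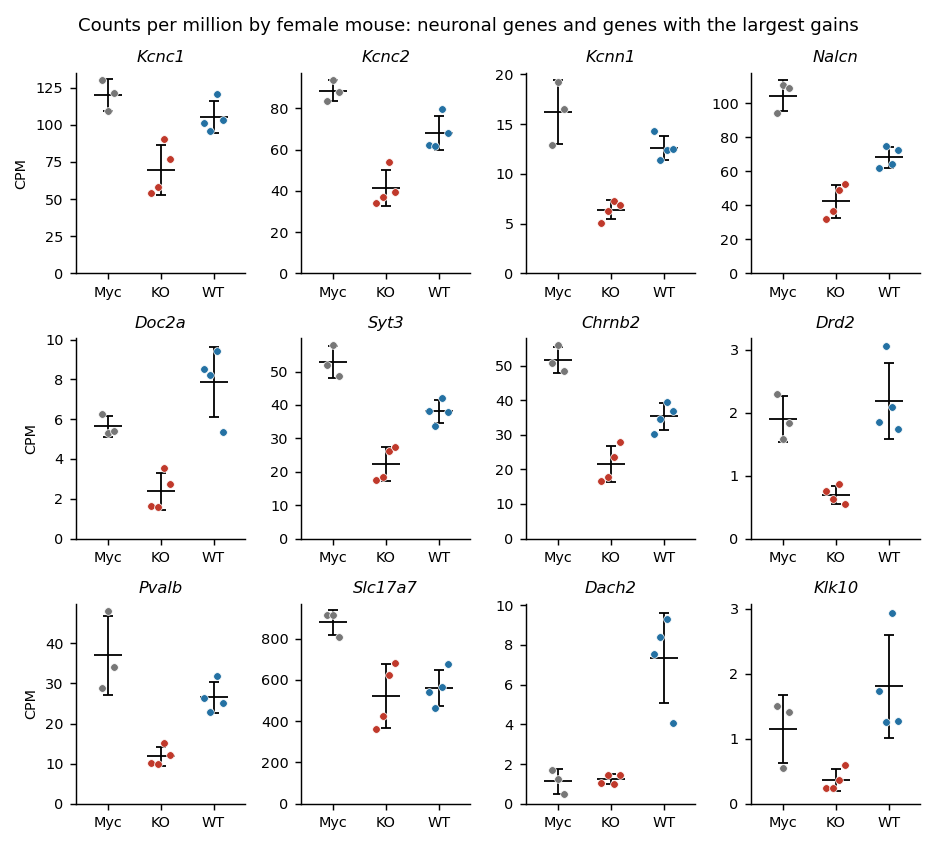
CPM on the y axis in each female mouse for 12 genes, with Myc mice in grey, KO mice in red and WT mice in blue; bars are the mean ± SD of 3, 4 and 4 mice. The WT mice lie above the KO mice in all panels but Slc17a7, and all 4 lie above the Myc mice for Dach2.

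Markers of the principal cell layers did not follow the channels. Slc17a7, the vesicular glutamate transporter of excitatory neurons, measured 361, 426, 622 and 682 CPM in KO and 539, 466, 564 and 676 CPM in WT mice, against 916, 914 and 808 CPM in Myc mice. WT and KO mice overlap (log2 fold change 0.10 ± 0.16, edgeR adjusted p = 0.751), and every mouse of both lies below the Myc mice. Prox1, of dentate granule neurons, was not called (log2 fold change -0.037 ± 0.21, edgeR adjusted p = 0.942). Amigo2, of CA2 and CA3 neurons, measured 8.21, 16.6, 10.4 and 13.2 CPM in KO, 6.71, 10.2, 8.17 and 9.18 CPM in WT and 24.8, 28.0 and 24.7 CPM in Myc mice, with no call between WT and KO (log2 fold change -0.50 ± 0.21, edgeR adjusted p = 0.112). The lists for dentate gyrus, CA1, CA2 and CA3 had 16, 14, 14 and 14 genes tested. In them 1 gene was higher in WT mice, in CA3, and 1, 1, 2 and 0 were lower. Of all genes tested 14.5% were called. The list medians of the log2 fold change were 0.054, -0.056, 0.15 and 0.044 in the same order. Clustered protocadherins, which give each neuron its own surface identity, had 5 of 58 genes higher, such as Pcdhga2 (log2 fold change 0.56 ± 0.13, edgeR adjusted p = 0.00283), and 2 lower, such as Pcdhgc3 (log2 fold change -0.65 ± 0.13, edgeR adjusted p = 6.84e-04). Within a cluster these genes share their last exons, so reads may be split between them, and 3 were called higher without KO mouse 13 or WT mouse 39 and 3 when only the KO and WT mice were fitted. The 7 calls of 58 are a share close to the 14.5% of all genes tested.

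Of the genes the study names in its results on RNA or chromatin, 12 were tested, and 2 were higher and 4 lower in WT mice. They were not chosen independently of the study: Kiss1r, Kcnc1, Dkk2 and Mfng come from its expression results on these samples, H2az1 and H2az2 are its targets, and the others were examined on chromatin, so the counts are no independent evidence of a direction. Kcnc1, B2m and H2az1 are described above. Kiss1r, the kisspeptin receptor, measured 1.70, 2.72, 2.56 and 2.89 CPM in KO and 4.65, 4.11, 3.83 and 3.77 CPM in WT mice (log2 fold change 0.73 ± 0.17, edgeR adjusted p = 0.00218). Dkk2, a secreted Wnt antagonist, measured 5.57, 6.52, 3.18 and 2.70 CPM in KO and 1.43, 2.26, 1.48 and 1.99 CPM in WT mice (log2 fold change -1.33 ± 0.31, edgeR adjusted p = 0.00261). Mfng, which adds sugars to Notch, measured 6.68, 6.78, 5.18 and 6.51 CPM in KO and 3.30, 3.54, 3.65 and 3.81 CPM in WT mice (log2 fold change -0.82 ± 0.19, edgeR adjusted p = 0.00223). The 3 genes do not overlap between the groups. Gadd45b, an activity-induced gene of DNA demethylation, was lower in all WT mice (log2 fold change -0.46 ± 0.14, edgeR adjusted p = 0.0220) but was not called without KO mouse 13 or 34 or WT mouse 39 or 40 (adjusted p = 0.118, 0.0529, 0.0567 and 0.0756). Arc, a gene of synaptic plasticity, Fos, an immediate early transcription factor, Fkbp5, of the glucocorticoid response, and Th, of catecholamine synthesis, overlap between the groups and were not called (log2 fold changes 0.27 ± 0.39, -0.087 ± 0.31, -0.091 ± 0.14 and 0.70 ± 0.44; edgeR adjusted p = 0.723, 0.903, 0.736 and 0.320). Fos was higher in WT than in Myc mice, at 34.5, 17.9, 18.3 and 15.5 CPM against 5.56, 8.30 and 7.88 CPM (log2 fold change 1.58, adjusted p = 0.00678). Over 37 immediate early genes 7 were lower and none higher (median log2 fold change -0.068), against 14.5% called of all genes tested. Among the 7 was Nptx2, a pentraxin that clusters AMPA receptors (log2 fold change -1.04 ± 0.27, edgeR adjusted p = 0.00788). The count of these genes called lower was 3 without KO mouse 13 and 4 without WT mouse 39 or 40.

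The 10 genes with the largest log2 fold changes upward, by the same rule as for the decreases, include 5 unnamed transcripts. Dach2 (chromosome X, 112207186 to 112746083, plus strand), a transcription cofactor of development, measured 1.02, 1.47, 1.02 and 1.47 CPM in KO, 7.57, 8.40, 9.31 and 4.09 CPM in WT and 1.69, 1.23 and 0.468 CPM in Myc mice. All 4 WT mice lie above every KO and every Myc mouse, against KO (log2 fold change 2.55 ± 0.47, edgeR adjusted p = 4.59e-04) and against Myc (log2 fold change 2.66, adjusted p = 0.00371), while KO and Myc mice overlap. Arhgap36 (chromosome X, 48536999 to 48589121, plus strand), an inhibitor of protein kinase A signalling, measured 1.21, 1.00, 0.648 and 0.409 CPM in KO and 6.42, 32.9, 2.51 and 1.42 CPM in WT mice. WT mouse 20 holds most of its signal, and the gene was just called (log2 fold change 3.71 ± 1.28, edgeR adjusted p = 0.0485). It was not called without any one of KO mice 13, 14, 33 and 34 (adjusted p = 0.1, 0.107, 0.0878 and 0.105) or without WT mouse 19 or 20 (0.0551 and 0.3). Klk10 and Klk7 are secreted serine proteases of the kallikrein cluster. Klk10 measured 0.242, 0.245, 0.370 and 0.599 CPM in KO and 1.74, 1.26, 2.94 and 1.28 CPM in WT mice (log2 fold change 2.32 ± 0.44, edgeR adjusted p = 4.32e-04). Klk7 measured 0.566, 0.759, 0.494 and 0.926 CPM in KO and 5.02, 1.70, 1.28 and 1.81 CPM in WT mice (log2 fold change 1.83 ± 0.44, edgeR adjusted p = 0.00357). Klk7 owes much to WT mouse 19, without which it was not called (adjusted p = 0.0529). Dkkl1, a relative of the Dickkopf Wnt antagonists, was called (log2 fold change 1.75 ± 0.53, edgeR adjusted p = 0.0202) but not without KO mouse 13 or 14 or WT mouse 19 or 20 (adjusted p = 0.0683, 0.0711, 0.0861 and 0.0524). E130008D07Rik, one of the unnamed transcripts, measured 0.646, 0.491, 0.926 and 1.12 CPM in KO, 3.33, 3.24, 2.49 and 3.91 CPM in WT and 4.61, 4.63 and 5.07 CPM in Myc mice (log2 fold change 2.03 ± 0.27, edgeR adjusted p = 6.84e-06).

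Genes of the H2A.Z machinery gave 3 calls. Of 33 genes for H2A variants and the machinery that places, acetylates or reads H2A.Z, 2 were higher and 1 lower, a smaller share than the 14.5% of all genes tested. Kat5 measured 38.7, 41.7, 40.9 and 46.0 CPM in KO and 50.8, 46.7, 46.1 and 50.1 CPM in WT mice (log2 fold change 0.21 ± 0.065, edgeR adjusted p = 0.0216). Actl6b, an actin-like subunit of neuronal remodellers, measured 43.3, 47.3, 69.8 and 65.9 CPM in KO and 73.8, 69.7, 88.9 and 82.0 CPM in WT mice, which overlap (log2 fold change 0.47 ± 0.12, edgeR adjusted p = 0.00401). Brd2, a bromodomain protein that binds acetylated H2A.Z nucleosomes, was lower (log2 fold change -0.19 ± 0.061, edgeR adjusted p = 0.0334). None of the 3 was called when only the KO and WT mice were fitted, and Kat5 was not called without KO mouse 13 or 14 or WT mouse 19 or 40, with adjusted p of 0.111, 0.0537, 0.0737 and 0.0676. Brd2 was not called without KO mouse 13 or 14 or WT mouse 19, 39 or 40, with adjusted p of 0.107, 0.121, 0.0621, 0.0795 and 0.0863. Of 59 replication-dependent and linker histone genes 1 was higher, H1f0, the linker histone of resting cells (log2 fold change 0.40 ± 0.11, edgeR adjusted p = 0.00851), and 3 were lower (median -0.44). The 4 calls of 59 are also a smaller share than the 14.5% of all genes tested.

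The Myc mice place both groups on a common scale, though KO and WT are then set against the same 3 mice. WT mice had 2669 genes called against Myc (9.38%) and KO mice 9842 (34.6%), of which 5.87% and 18.1% of the genes tested were higher and 3.52% and 16.5% lower. The WT count was 963 without Myc mouse 31 and 1281 without Myc mouse 32. The median log2 fold change against Myc of the interferon response genes was 3.80 in KO and 1.87 in WT mice, that of T and NK cell genes 4.18 and 1.63, and that of mitosis genes 1.29 and 0.26. Of the 82 interferon response genes 63 were still called higher in WT than in Myc mice, and of the 43 T and NK cell genes 7. For presynaptic genes the medians were -0.64 in KO and -0.29 in WT mice, with 34 and 5 of 48 called lower than Myc. For potassium channels they were -0.48 and -0.21, with 35 and 4 of 57 called lower. WT mice lay between Myc and KO mice in the medians of these lists. B2m shows it for 1 gene, at 214, 105 and 122 CPM in Myc against 409 to 443 CPM in WT mice (log2 fold change 1.55, adjusted p = 0.00444). Without Myc mouse 32 the medians of WT against Myc were 1.66 for interferon response, 1.35 for T and NK cells and -0.28 for presynaptic genes, with 37, 2 and 3 called. Without Myc mouse 31 the genes called between WT and Myc mice were 35 of interferon response, 2 of T and NK cells and 0 of the presynaptic list, which had 3 without Myc mouse 11. Potassium channels lower in WT than in Myc mice numbered 2 without Myc mouse 11 and 1 without Myc mouse 31 or 32.

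In 3 tissue lists few or no genes were called between WT and KO mice. None of 26 choroid plexus genes was called between WT and KO mice (median log2 fold change -0.18), with 0 at an unadjusted p under 0.05 and none called by DESeq2, while both groups had medians far above Myc (3.99 and 3.76). None of 26 myelin genes was called by edgeR or DESeq2, with 4 at an unadjusted p under 0.05 (median 0.098). Mbp, the main protein of myelin, measured 4073, 3864, 2731 and 2545 CPM in KO and 5207, 4569.5, 3546 and 4174 CPM in WT mice, which overlap (log2 fold change 0.41 ± 0.17, edgeR adjusted p = 0.117). Mog, on the outer face of myelin, measured 48.8, 44.0, 30.4 and 37.2 CPM and 53.2, 51.9, 41.2 and 54.6 CPM (log2 fold change 0.32 ± 0.21, edgeR adjusted p = 0.353). Against Myc, 17 myelin genes were higher in KO and 22 in WT mice, and these counts were 10 and 10 without Myc mouse 11, 15 and 9 without Myc mouse 31, and 22 and 19 without Myc mouse 32. Of 30 genes of ependymal cilia 2 were higher and 1 lower (median 0.36), and Foxj1, of ciliated ependyma, was not called (log2 fold change -0.58 ± 0.35, edgeR adjusted p = 0.310). The 3 calls of 30 are a smaller share than the 14.5% of all genes tested. Since choroid plexus RNA differs so much from mouse to mouse, the comparison was repeated without KO mice 14 and 33 and WT mouse 20, whose Ttr exceeds 1000 CPM. The number of interferon response genes called lower stayed at 80 of 82 and of T and NK cell genes at 40 of 43. Potassium channels called higher were 11 and presynaptic genes 12, but mural genes called lower were 5 and ribosomal ones 6. With those 3 mice left out, Aqp4, Arhgap36, Brd2, Dcx, Dkkl1, Kat5 and Nptx2 were not called (edgeR adjusted p = 0.0827, 0.494, 0.0948, 0.0613, 0.182, 0.140 and 0.0648). With WT mouse 39 (907 CPM of Ttr) left out as well, a choice made after seeing the data, the same counts were 75 for interferon response, 33 for T and NK cells, 10 for potassium channels, 4 for presynaptic genes, 5 for phagocytic microglia, 1 for mural and 1 for ribosomal genes. Counts called lower were then 6 for MHC class II, 7 for complement, 18 for lysosome, 9 for reactive astrocytes, 2 for general astrocytes, 17 for mitosis, 9 for matrix, 7 for p53 targets, 5 for the stress list and 1 for immediate early genes, and 6 of the sodium, calcium and HCN channels were higher. This leaves 2 mice in each group, and Dach2 then had an adjusted p of 0.0559.

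The KO mice varied more among themselves than the WT mice. Over all genes tested the SD of log2 CPM between mice was larger in KO than in WT mice for 59.5%, but for 81 of 82 interferon response genes (median SD 0.48 and 0.14) and for all 43 T and NK cell genes (median SD 1.03 and 0.36). Presynaptic genes showed it in 40 of 48 (median SD 0.38 and 0.16). Ependymal cilia genes had the reverse, with 2 of 30 more variable in KO mice. The list medians of T and NK cell genes, as log2 CPM minus Myc, were 3.25, 3.19, 2.75 and 5.05 in KO mice 13, 14, 33 and 34. Mouse 34 was thus far above the others. Presynaptic medians were -1.02, -0.82, -0.40 and -0.42 in the same mice, lowest in mice 13 and 14. These are descriptions over genes of the same 8 mice and were not tested.

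The mice fall into 2 ranges of sample number, 11 to 20 and 31 to 40, with 2 KO and 2 WT mice in each, and the labels do not say whether the ranges mark a batch. WT against KO gave 2301 calls (8.09%) in the first range, with 4% of genes higher and 4.09% lower. In the second range it gave 688 calls (2.42%), with 0.538% higher and 1.88% lower. By the test of the difference itself no gene was called by edgeR, with 1269 of 28449 at an unadjusted p under 0.05, and DESeq2 called 5, Islr2, Bbs4, Ankdd1a, Ighv3-6 and Elk1, which were named after their values were seen. The median of the interferon list was -1.61 in the first and -2.03 in the second range, and presynaptic genes 0.59 and 0.19. Presynaptic genes called higher were 24 in the first and 2 in the second range, and potassium channels 18 and 2. For the difference between the ranges, 14 of 48 presynaptic genes and 10 of 57 potassium channels had an unadjusted p under 0.05, none of which passed the adjustment, against 4.46% of all genes. B2m differed by -1.61 and -1.69 and Doc2a by 2.37 and 1.25 on the log2 scale. With the range as a term in the model 4888 genes were called, 1930 higher and 2958 lower, among them 25 presynaptic genes, 20 potassium channels and 8 interneuron genes that were higher.

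**Figure D5:**
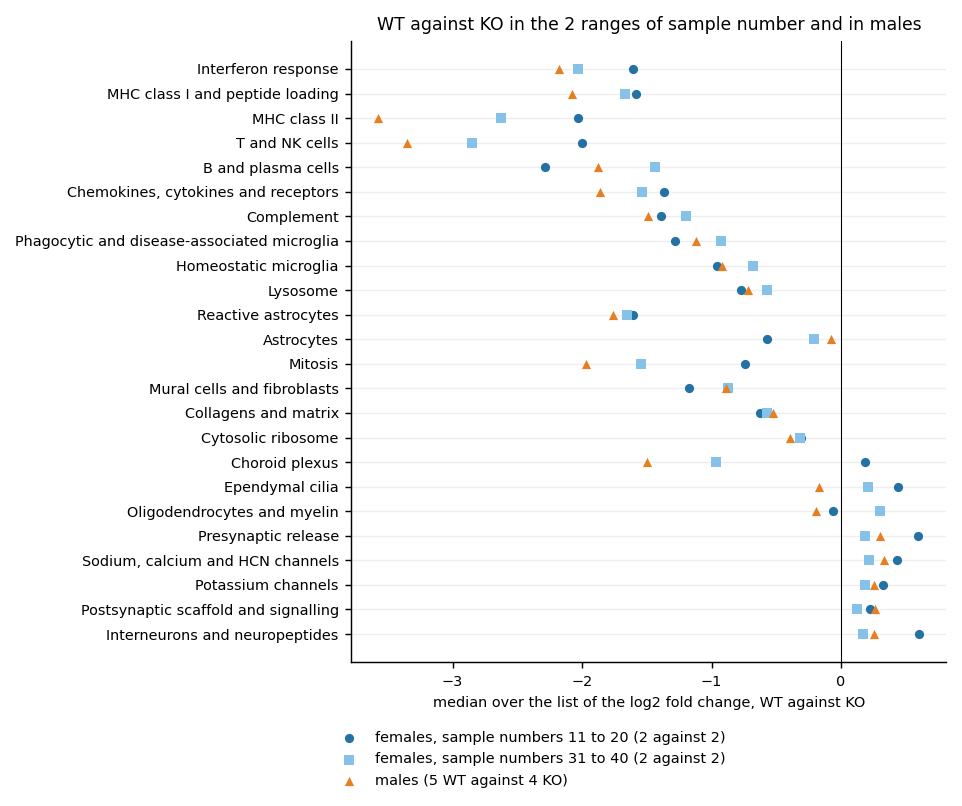
For 24 gene lists (y axis), the x axis gives the median log2 fold change of WT against KO in females with sample numbers 11 to 20, in females with 31 to 40 and in males. The immune lists lie left of 0 and the 5 lists of presynaptic, postsynaptic, interneuron and ion channel genes right of 0 in all 3 sets, while the choroid plexus, ependymal and myelin lists lie on both sides.

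In males, 5 WT and 4 KO mice under the same viruses gave 5536 calls (19.5%), 2117 higher (7.44%) and 3419 lower (12%). No gene's difference between WT and KO was called as unlike in females and males by edgeR, with 968 genes at an unadjusted p under 0.05 against 28449 tested, and DESeq2 called 4, Igkv4-91, Igkv6-20, Igkv6-13 and Ighv1-81, named after their values were seen. Over genes with a mean of at least 1 CPM the 95% interval of such a difference reached a median of 0.37 to either side on the log2 scale. That interval is not adjusted for the number of genes tested, so larger differences may also have gone uncalled. B2m was lower in WT males too (log2 fold change -2.08 against -1.65 in females, difference 0.42, 95% interval -0.39 to 1.24). Dach2 rose in WT males as well (3.40, adjusted p = 5.57e-06), with 8.43 ± 4.71 CPM (SD, n = 5) against 0.811 ± 0.372 CPM (SD, n = 4). Drd2 had the smallest p for a difference between the sexes among genes of at least 1 CPM, with 1.65 for females against 0.42 for males on the log2 scale. It was not called (difference 1.23, unadjusted p = 6.41e-04, edgeR adjusted p = 1.000).

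Females that received H2A.Z.1 with lysines of its tail changed, to alanine (KA, 4 mice) or to glutamine (KQ, 3 mice), were compared with the WT females to see whether these residues of the returned protein bear on its transcripts. No gene was called between WT and KA mice or between WT and KQ mice by edgeR, with 1168 and 754 genes at an unadjusted p under 0.05, and DESeq2 called 4 and 10. The 4 between WT and KA were Igkv4-79, Igkv3-10, Ighv2-3 and Ighv1-21, and the 10 between WT and KQ were Sag, Igkv9-124, Igkv4-86, Tph1, Ighv2-3, Ighv9-1, Ighv9-4, Ighv1-21, Ighv1-39 and Ighv1-75, all named after their values were seen. Immunoglobulin variable genes make up all of the first and 8 of the second set. Of 26 myelin genes 18 had an unadjusted edgeR p under 0.05 between WT and KQ mice and 3 between WT and KA mice. Their median WT minus KQ difference was 0.45 on the log2 scale. Of 26 choroid plexus genes 10 had such a p against KA and 0 against KQ, with median differences of 1.79 and 0.61. Of 30 genes of ependymal cilia 6 had it against KA and 0 against KQ, with medians of 0.51 and 0.27. B2m differed from WT by a log2 fold change of -0.22 against KA (95% interval -0.81 to 0.37) and -0.16 against KQ (-0.80 to 0.47). Doc2a differed by 0.42 against KA (-0.053 to 0.90) and -0.022 against KQ (-0.53 to 0.49). Dach2 stood at 9.26 ± 2.33 CPM in KA (SD, n = 4) and 12.4 ± 5.16 CPM in KQ mice (SD, n = 3), and its mean in WT mice was lower than both, at 7.34 CPM. These intervals bound the differences and do not show that the 3 forms act alike.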

How the data were processed

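RNA-seq of hippocampal tissue from 40 mice, 1 library each, was analysed from the deposited count table. Paired-end reads had been mapped to GRCm39 by the authors, with featureCounts for the counts per gene, and the sources name FastQC 0.11.9 and DESeq2 1.38.3. These raw counts were deposited without normalization. Here, samples were grouped by GEO's labels, and the 28449 of 40853 genes whose counts added up to 20 or more were fitted with edgeR 4.0.16 (R 4.3.3; TMM, robust quasi-likelihood, all 10 groups of sex and virus), with Benjamini-Hochberg adjustment at 0.05. Library totals were 24342921 to 45982772. DESeq2 1.42.0, other scalings, filters and fits, and the omission of each mouse were tried as alternatives. The test was also run on simulated data. The members and the 50 gene lists were chosen with earlier results of these data known, and 1676 of 1681 list genes are in the table. The genes named are a choice from the targeted genes and those the study names, the 10 largest called changes in each direction (mean of at least 1 CPM, groups that do not overlap), up to 3 genes of each list with the smallest p, cell type markers, and genes said to have been chosen after their values were seen. Nothing in the labels says whether mice shared a litter or a day, so p-values measure the spread between these mice. Promoters are from RefSeq (GRCm38.p6) and gene coordinates from GENCODE on GRCm39.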

Additional observations from a re-analysis of the deposited data

Results flagged for a closer look

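Of 208 groups of 4 mice examined (2 groups for each named gene), 24 (11.5%) held a mouse whose gap to the nearest other mouse exceeded Dixon's critical value at 95%. That value flags about 1 in 20 by chance only for independent values with a normal spread. These genes were measured in the same mice and partly chosen by their values. The share is therefore no measure of an excess over chance.

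KO mouse 34 was the far highest KO mouse for 11 of the 24 flagged groups. Its values were 19.0 CPM for Ciita, 72.1 CPM for Parp12, 137 CPM for Cxcl10 and 128 CPM for Bst2. For Cxcl11 it had 27.3 CPM, for Ccr7 6.02 CPM, for Ubd 11.6 CPM and for Cfb 55.6 CPM. For Cd8a it had 27.5 CPM, for Ctla4 8.45 CPM and for Tmem119 55.7 CPM. These are genes of interferon, lymphocytes, complement and microglia.

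Among the other KO mice, mouse 33 was the far lowest for Cd79a (0.679 CPM) and Mfng (5.18 CPM), and mouse 13 the far highest for Igkv6-32 (177 CPM). Among WT mice, mouse 19 was the far highest for Rpl23 (119.9 CPM), Fos (34.5 CPM) and Klk7 (5.02 CPM) and the far lowest for Gabrg3 (16.6 CPM). WT mouse 20 was the far highest for Oprl1 (23.4 CPM) and Arhgap36 (32.9 CPM), WT mouse 39 for Isg15 (19.97 CPM) and Mki67 (4.95 CPM), and WT mouse 40 for P2ry12 (53.7 CPM) and Fkbp5 (55.6 CPM).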

How the results depend on the processing

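No paired analysis was possible because each mouse has a number of its own that no mouse of another group shares, so no replicate block could be fitted. The range of the sample number was fitted as a term instead, which pairs no mice. The 4134 calls between WT and KO mice became 4742 with DESeq2 and 3161 when only the 8 mice were fitted. Without the 4 mice above 500 CPM of Ttr (an alternative chosen after seeing the data) 1775 were called, 439 higher and 1336 lower, and without the 3 mice above 1000 CPM 906 were called higher. Leaving out each mouse in turn gave 2586 to 4818 calls, 823 to 1824 higher and 1763 to 2994 lower. All 89 named genes with a call kept their sign in every alternative run. Without the mice above 500 CPM of Ttr 71 of them kept the call. Many of these genes were chosen from these same mice for a small p or for groups that do not overlap. A kept sign was thus largely fixed by that choice and is no independent support. DESeq2 called 4 genes between the sexes, 4 between WT and KA, 10 between WT and KQ and 5 between the ranges of sample number, where edgeR called none. Calls of WT against Myc were 963 to 2003 when a Myc mouse was left out, against 2669. Some uncalled genes changed sign. Without the mice above 500 CPM of Ttr the log2 fold change was 0.042 for Fos, 0.027 for Fkbp5 and 0.24 for Ttr, and Ttr had 2.54 without those above 1000 CPM and 0.67 once a score of choroid plexus genes was a covariate. With each mouse left out in turn it was -2.20 to 0.48 for Ttr, -0.41 to 0.19 for Fos, -0.039 to 0.26 for Slc17a7 and -0.11 to 0.045 for Prox1. The cause was not tested. With 4 mice a group, the 95% interval of a log2 fold change reached a median of 0.27 to either side for genes of at least 1 CPM.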
